A study of Drosophila melanogaster with 12 samples.

Results

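The baseline transcriptome of control enteroblasts was described from 3 of the 12 RNA-seq libraries of a study on Shavenbaby in the adult fly midgut. All 8802 genes of the deposited count table were ranked by their mean CPM, which is counts scaled to a common library total, in those 3 control libraries. Transcription factors, receptors, enzymes and cell type markers were then read from that ranking. Every group carried esg-Gal4, UAS-GFP/+ as driver and reporter and tubGal80TS, a heat-sensitive repressor of Gal4. The control, from a cross of the driver line to Canton-S, had the genotype esg-Gal4, UAS-GFP/+; tubGal80TS/+. The other 3 groups carried UAS-SvbRNAi (svb knockdown), UAS-SvbACT::GFP (SvbACT) or UAS-Svb3Kmut::GFP (SvbREP) over tubGal80TS, with 3 libraries each. Virgin females spent 3 days at room temperature and 6 days at 29 °C, and were 9 days old when dissected. Posterior midguts (R3 to R5) from batches of over 20 females were pooled, and cells with high GFP and large forward scatter were sorted. The driver is also active in intestinal stem cells, so a stem cell that passed this gate would be in the same tube.

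Enteroblasts are the progeny of intestinal stem cells that go on to form enterocytes, the large absorptive cells of the gut. Notch activity, read out through repressors of the E(spl) family, sets them on this path. They can wait in an undifferentiated state, and EGFR, JAK-STAT, Hippo and Dpp signalling are known to act on their activation and growth.

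The control libraries held 4303746, 7114312 and 3853072 counts, and the other 9 held 2186283 to 7444253. A count of 3 corresponded to 0.419 to 0.837 CPM in control, a limit that covers counting error only. The control libraries differed from each other beyond sampling noise (chi-square per degree of freedom 15.2 to 23.9), so none was a copy of another. Their common biological coefficient of variation was 23.7%. The gene targeted in the study, ovo, which encodes Shavenbaby, measured 2.25, 16.3 and 0.279 CPM in control. The libraries labelled svb knockdown held 61.1, 20.6 and 15.4 CPM of ovo, and their range overlapped that of control only through control replicate 2. The other 6 libraries held at least 1111 CPM. Construct-derived and endogenous ovo reads cannot be told apart in these counts.

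In all, 7249 genes (82.4%) reached 1 CPM in every control library. The median gene measured 19.7 CPM, and 868 genes had a mean under 1 CPM. The 880 most abundant genes, the top 10% and called high below, held 71.2% of all CPM and began at 250.4 CPM. The first 20 held 12.4%, and the first 100 held 29.3%.

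The translation elongation factor eEF1alpha1 was the most abundant gene with 18186, 17559 and 23928 CPM. It was the highest of all genes in every control library. Msp300, a giant nesprin that anchors nuclei and organelles to the cytoskeleton, followed with 11269, 9608 and 9911 CPM. RNaseMRP:RNA, the RNA of an RNase that processes ribosomal RNA, measured 5195, 7899 and 14289 CPM. It was the most variable of these 3 genes and stood highest in control replicate 3. The chaperone genes Hsp83 and Hsc70-4 measured 8589 ± 1584 CPM (SD, n = 3) and 7907 ± 144 CPM. Tet, which encodes a dioxygenase acting on methylated bases, measured 10906, 7329 and 7409 CPM and was highest in control replicate 1. The other named genes among the first 20 were snRNA:7SKa, eEF2, the cytoskeletal linker gene shot, lncRNA:CR42862, mt:CoI, Hsp68, RpL3, Dscam1, heca, spen, Act5C and pAbp. Of RpL3 exon sequence, 22.2% overlaps other genes. The cytoplasmic actin gene Act5C measured 4945, 3862 and 2953 CPM and pAbp, for the poly(A)-binding protein, 4741, 3504 and 2035 CPM. Both were lowest in control replicate 3. A further 2 of the 20 had identifiers that the annotation used here does not pair with a symbol.

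Levels of different genes are comparable only per length. Per kb of exon sequence, RNaseMRP:RNA, snRNA:7SKa and snoRNA:Or-aca4 led, and eEF1alpha1 came next with 8073 CPM per kb. Msp300 fell to rank 375 with 147 CPM per kb. The remaining genes of the first 15 per kb were snoRNA:185, 5SrRNA-Psi:CR33363, Hsc70-4, Hsp83, mt:CoI, mt:CoIII, RpLP2, sta, lncRNA:CR40469, RpL41 and Hsp26. All exon sequence of snoRNA:Or-aca4 lies within an exon of CG44403, and the use of strand in counting is not given in the sources used here. Of 77 genes for cytoplasmic ribosomal proteins, 71 were high, and together they held 7.66% of CPM. The 21 mitochondrial genes held 1.25%.

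**Figure D1:**
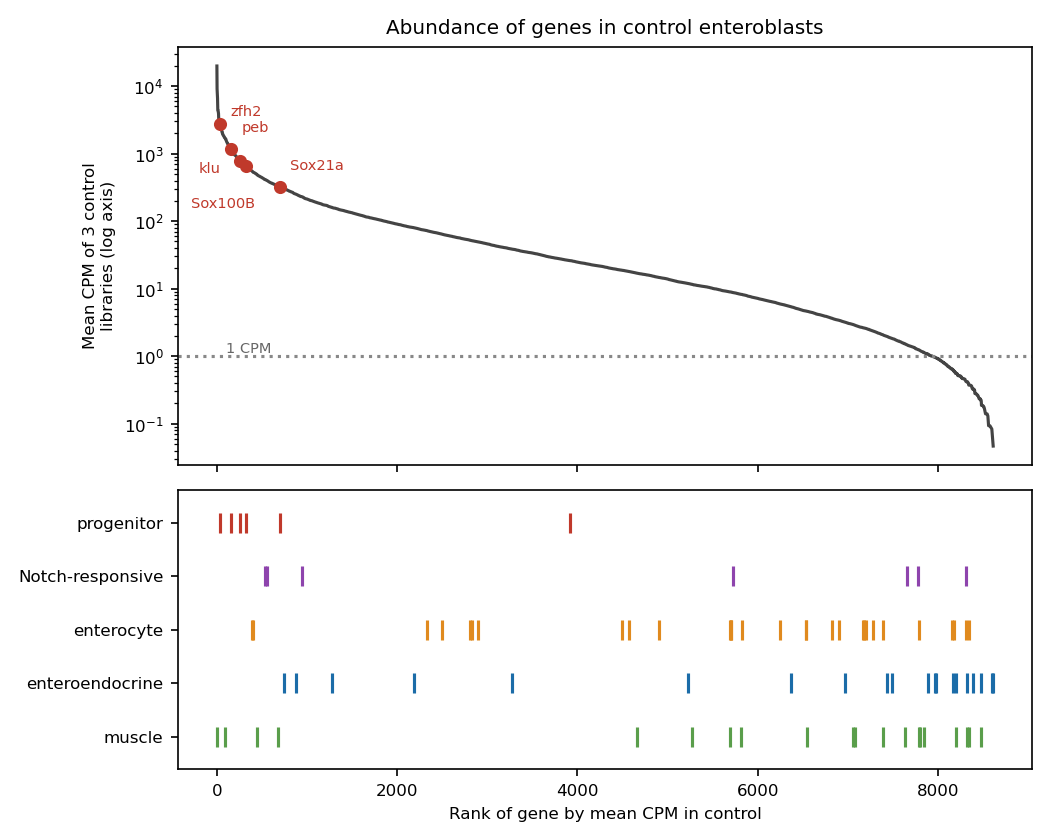
Mean CPM of each gene over the 3 control libraries (log axis) against its rank, with a dotted line at 1 CPM and, in the lower panel, 1 tick for each gene with a count of 5 marker lists. The 5 labelled progenitor genes lie among the 880 high genes, and the 4 leftmost muscle ticks are Msp300, Tm1, Zasp52 and Mef2.

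Progenitor markers were abundant, and 5 of the 6 with a row in the table were high. Sox100B, a SoxE transcription factor of gut progenitors (Ensembl annotation of BDGP6, chromosome arm 3R, 31065253 to 31083407), measured 623, 598 and 737 CPM. The zinc-finger homeodomain gene zfh2 (4, 501810 to 540874) measured 3072, 2293 and 2787 CPM. Of its exon sequence, 18.7% overlaps Tdg on the other strand. The gene klu (3L, 10981171 to 11009188), which encodes a zinc-finger repressor that keeps enteroblasts on the enterocyte path, measured 898, 661 and 796 CPM. These 3 markers were high in every control library, and control replicate 2 was the lowest for each. The zinc-finger gene peb measured 1376, 1086 and 1043 CPM. Sox21a, needed for progenitors to differentiate, measured 334, 413 and 221 CPM and was lowest in control replicate 3. The cell surface gene fax was the exception with 31.4, 28.5 and 18.1 CPM. The marker esg was not analysed here.

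Of 8 genes listed for stem cells, 5 could be matched to a row, and the markers Dl, spdo and mira were not among these. The share of stem cells was therefore not assessed. Of the 5 genes, insc and pnt were high. The adaptor gene insc, which acts in asymmetric division, measured 680.2, 574 and 733 CPM, and numb, for a Notch inhibitor, 134, 112 and 147 CPM. The proneural gene sc varied between the libraries, with 2.25, 5.86 and 0 CPM, and ase was near the counting limit, with 0, 0.140 and 1.12 CPM. Proneural genes are known to act in the formation of enteroendocrine cells.

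Notch-responsive genes fell into an abundant and a scarce set. The repressor gene E(spl)mbeta-HLH measured 406, 382 and 446 CPM. E(spl)m3-HLH measured 461, 358 and 382 CPM, and E(spl)malpha-BFM 282, 215 and 194 CPM. E(spl)mgamma-HLH measured 12.2, 9.91 and 4.18 CPM, and E(spl)m8-HLH, E(spl)m7-HLH and E(spl)m6-BFM measured at most 3.49 CPM in any control library. Per kb, the first 3 stood at 421, 307 and 341 CPM. The lowest control value of each exceeded the highest of the other 4 genes.

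Marker lists of mature cell types had medians under the 19.7 CPM of all genes. Here and below, list values cover members with a row in the table, and members without a row were not assessed. The median was 4.65 CPM for enterocyte, 0.964 for enteroendocrine and 2.46 for muscle genes. Still, 18 of 32 enterocyte genes reached 1 CPM in every control library. Of 32 enterocyte genes, Inos and Myo31DF were high. Inos, for an enzyme of inositol synthesis, measured 481, 492 and 634 CPM and the myosin gene Myo31DF 488, 536 and 627 CPM. The brush border myosin gene Myo61F measured 47.2, 102 and 43.8 CPM, and nub, for a POU factor of enterocytes, 15.7, 35.5 and 5.02 CPM. Both were highest in control replicate 2. Of 30 digestive enzymes 0 were high and 13 reached 1 CPM in every control library. The protease genes Jon25Bi, Jon66Ci and Jon66Cii had no count in control.

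The 9 listed peptide hormone genes of enteroendocrine cells summed to 2.25, 20.0 and 4.74 CPM. The highest single value was that of Tk, for tachykinin, with 0, 5.86 and 0 CPM. NPF and Mip had no count in control, and pros, for the defining transcription factor of the lineage, measured 4.49, 8.10 and 3.63 CPM. Control replicate 2 was highest for the hormone sum and for pros. Other genes of this list were abundant: ITP measured 367, 311 and 231 CPM, the carboxypeptidase gene svr 234, 288 and 231 CPM and Ptx1 173, 144 and 164 CPM.

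Of 22 muscle genes, 4 were high, namely Msp300, the tropomyosin gene Tm1 (2005, 1399 and 1599 CPM), the Z-disc gene Zasp52 (446, 535 and 493 CPM) and the transcription factor gene Mef2 (357, 299 and 346 CPM). The sarcomere genes Mhc, for myosin heavy chain, and Mlc2, for a light chain, measured 6.99, 19.8 and 7.81 CPM and 1.75, 2.79 and 1.67 CPM, and TpnC73F and TpnC47D had no count. Of 14 listed haemocyte genes, 7 had a row. Among these, Hml and lz had no count, while the scavenger receptor gene crq measured 398, 348 and 599 CPM. Of crq exon sequence, 15.7% overlaps ex on the other strand. Of 9 listed tracheal genes, the 3 with a row measured at most 4.74 CPM. Among 8 neuronal genes, elav measured 169, 127 and 102 CPM, with 34.2% of its exon sequence overlapping other genes, and the synaptic genes brp, nSyb and Syt1 at most 4.89 CPM. In the fat body list, Desat1, for a lipid desaturase that many tissues express, measured 227, 196 and 191 CPM, and the other 7 genes at most 6.74 CPM. In these bulk samples, fewer cells of a type and less RNA per cell cannot be told apart.

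**Figure D2:**
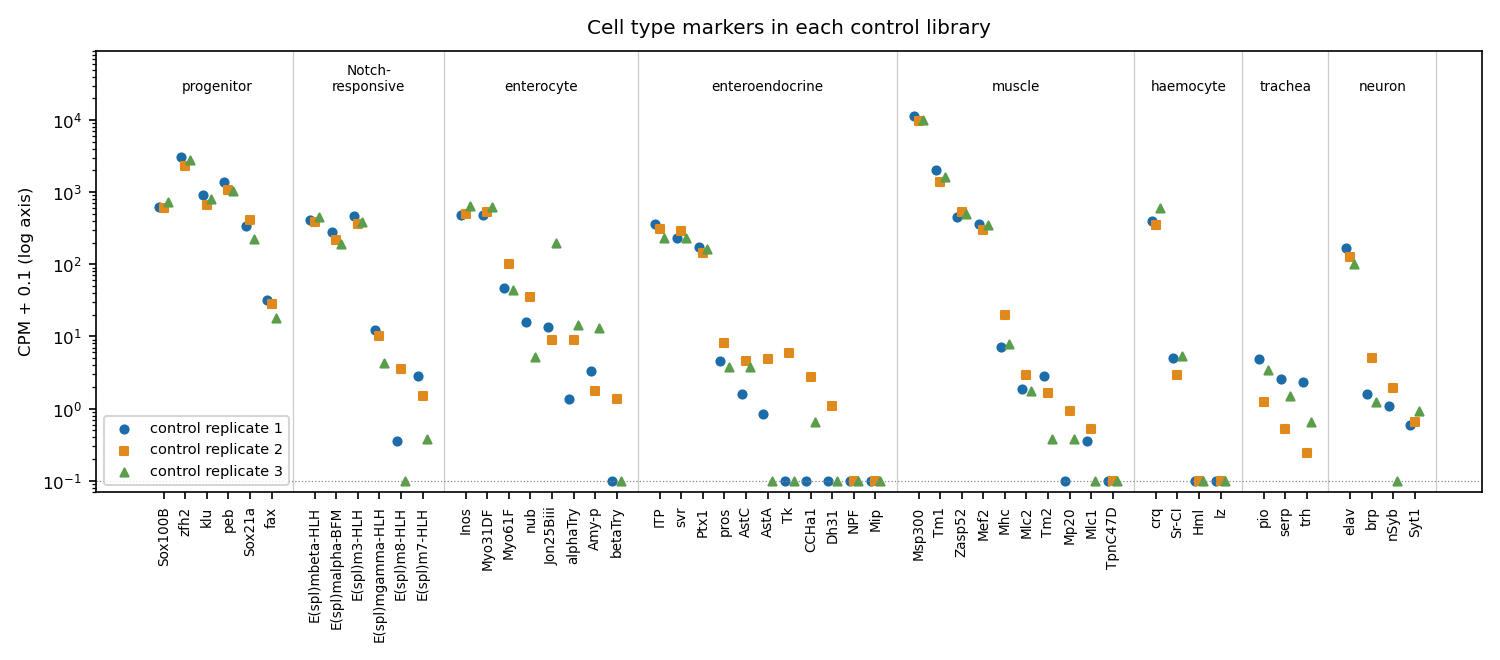
CPM + 0.1 (log axis) of a selection of cell type markers, with 1 symbol per control library, where a point on the dotted line stands for no count. All progenitor genes except fax lie above 200 CPM in every library, and Jon25Biii stands highest in control replicate 3. The hormone genes AstC to Mip stay below 6 CPM, while ITP, svr and Ptx1 lie above 100 CPM.

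Of 133 listed transcription factor genes with a row, 42 were high and 110 reached 1 CPM in every control library. E(spl)mbeta-HLH led per kb, followed by Xbp1 (354 CPM per kb), for the factor of the unfolded protein response, Stat92E (323), for the effector of the JAK-STAT pathway, and Sox100B (318). E(spl)m3-HLH, at the 307 CPM per kb given above, is not on this list. Then came the AP-1 gene kay (253 CPM per kb), zfh2 (219), Atf3 (209), cic (194), for a repressor that EGFR signalling inactivates, Mad (193), for the effector of Dpp, and klu (164). Of these neighbours, Sox100B and kay did not overlap per kb, and the ranges of all other neighbouring pairs among the 10 overlapped. In CPM, Stat92E measured 1719, 1338 and 1996 and kay 1951, 1800.2 and 2156. Xbp1 measured 668, 662 and 942 CPM and stood highest in control replicate 3. At the other end, dpn, Kr and Antp had at most 3 counts in every control library, and Ubx, tin, mirr, lz and tup had none.

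Of 107 listed receptor genes, 77 had a row. Of these 77 genes, 18 were high and 61 reached 1 CPM in every control library. The integrin subunit genes led per kb, with mew at 367 and mys at 276 CPM. In CPM they measured 2019, 1704 and 2010.1 and 1236, 1287 and 1184. Next per kb came the Slit receptor gene robo2 (269), Egfr (262), Dscam1 (159), crq (157), mgl (116), for an endocytic receptor, the netrin receptor gene fra (98.2), boi (93.8), for a Hedgehog co-receptor, and N (78.7). Of robo2 exon sequence, 42.9% overlaps non-coding genes. Per kb, mew lay above mys in every library and Egfr above Dscam1, and the ranges of all other neighbouring pairs among the 10 overlapped. The hormone and transmitter receptor genes NPFR, AstA-R2 and Lgr1 had at most 3 counts in every control library, and AstC-R1, AstC-R2, CCHa1-R, sNPF-R and GABA-B-R1 had none.

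**Figure D3:**
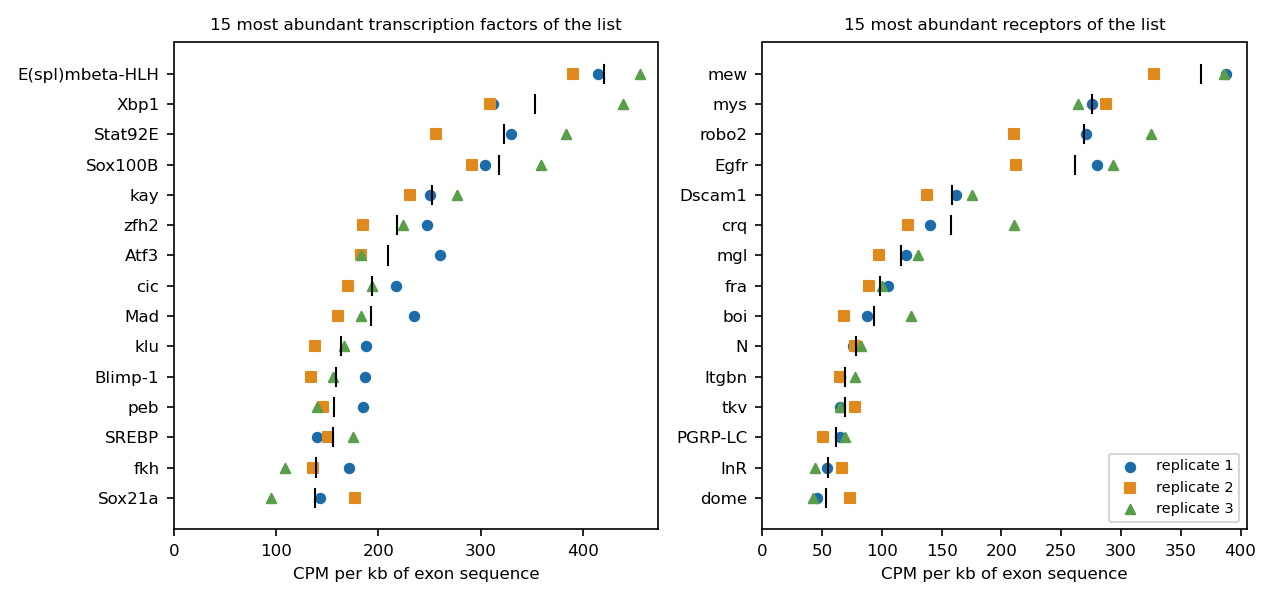
CPM per kb of exon sequence for the 15 most abundant transcription factor genes (left) and receptor genes (right) of the lists, with 1 symbol per control library and a black bar at their mean. E(spl)mbeta-HLH and mew lead their panels, with means of 421 and 367 CPM per kb.

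In the Notch list, the receptor gene N measured 771, 788 and 839 CPM, the protease gene kuz, whose product cleaves it, 1234, 1001 and 1085 CPM, and the glycosyltransferase gene fng 292, 280.1 and 352 CPM. The co-activator gene mam measured 303, 249 and 288 CPM. Su(H), for the transcription factor that carries the Notch signal, measured 16.6 ± 2.51 CPM, which is 5.64 CPM per kb. In all, 4 of 14 genes of the list were high and 13 reached 1 CPM in every control library.

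In the EGFR list, 8 of 22 genes were high. The receptor gene Egfr measured 1943, 1474 and 2039 CPM. The ligand gene spi measured 456, 404 and 436 CPM and the ligand gene vn 66.4, 117 and 83.7 CPM, while rho and stet, for proteases that release ligands, measured at most 4.18 CPM. The MAP kinase gene rl measured 453, 362 and 411 CPM and the effector gene pnt 359, 306 and 274 CPM. Inhibitors were also abundant, with sty at 1407, 978 and 1034 CPM and Cbl, for a ubiquitin ligase that turns over the receptor, at 753, 665 and 692 CPM.

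In the JAK-STAT list, 3 of 12 genes were high. The receptor gene dome measured 221, 356 and 206 CPM and was highest in control replicate 2. The kinase gene hop measured 119.8, 141 and 142 CPM and the feedback inhibitor gene Socs36E 989.6, 864 and 1014 CPM. The ligand genes upd3 and upd2 measured 82.8, 165 and 54.7 CPM and 25.7, 28.3 and 11.2 CPM, with upd3 highest in control replicate 2.

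In the Dpp list, 5 of 16 genes were high. Mad measured 801, 547 and 625 CPM and Smox, for the effector of the activin branch, 548, 513 and 617 CPM. The receptor genes tkv and babo measured 289.7, 344 and 289 CPM and 239, 228 and 225 CPM. The ligand gene dpp measured 0, 2.09 and 0 CPM, gbb 26.9, 30.7 and 36.8 CPM and myo 130.5, 94.4 and 106 CPM, and Actbeta had no count. The repressor gene brk measured 100.3 ± 54.6 CPM and was highest in control replicate 1.

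In the Hippo list, 4 of 15 genes were high. The co-activator gene yki measured 68.9, 69.5 and 64.4 CPM and its DNA-binding partner sd 437, 328 and 335 CPM. The upstream genes kibra and ex measured 570.4, 465 and 485 CPM and 319.6, 301 and 276 CPM, and the kinase genes hpo and wts 64.6, 50.1 and 55.0 CPM and 140.2, 91.6 and 111 CPM. The cadherin gene ft was low, with 6.74, 3.91 and 10.9 CPM, and ds had no count in control replicate 3.

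In the Wingless list, 4 of 20 genes were high. The beta-catenin gene arm measured 536, 543 and 524 CPM, the co-receptor gene arr 236, 248 and 328 CPM and the receptor gene fz2 339.8, 273 and 384 CPM. The ligand genes Wnt2 and Wnt6 measured at most 1.75 CPM. In the insulin and TOR list, 4 of 16 genes were high, with the receptor gene InR at 611, 759 and 504 CPM and the transcription factor gene foxo at 616, 422 and 589 CPM. The translation repressor gene Thor, which foxo activates, measured 207, 208 and 218 CPM.

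Of 15 genes for nuclear receptors and ecdysone response, 5 were high. The ecdysone receptor gene EcR measured 426, 287 and 401 CPM, and its response genes Eip93F and Eip74EF 1168, 894 and 738 CPM and 810.4, 584 and 763 CPM. Hr3, Hr38 and Hr4 were scarce, with at most 6.74 CPM. Of 19 innate immune genes 0 were high. The receptor gene PGRP-LC of the Imd pathway measured 243, 189 and 259 CPM and its inhibitor pirk 159.7, 135 and 178 CPM, while the antimicrobial peptide gene Drs measured 2.00, 0.419 and 0.558 CPM. Of 14 apoptosis genes, egr, Diap1 and Bruce were high. The caspase inhibitor gene Diap1 measured 382, 359.8 and 376 CPM, the initiator caspase gene Dronc 34.9, 62.3 and 49.7 CPM and the death inducer hid 57.6, 37.8 and 54.4 CPM.

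Adhesion and polarity genes were abundant, with 14 of 30 high. The talin gene rhea measured 2521, 2126 and 2835 CPM, the E-cadherin gene shg 1375, 1233 and 1572 CPM, and the polarity gene baz 902, 828 and 878 CPM. Components of the smooth septate junctions of enterocytes were lower and more variable, with mesh at 67.1, 97.7 and 18.7 CPM, Ssk at 8.73, 12.3 and 5.58 CPM and Tsp2A at 3.49, 8.79 and 0 CPM. All 3 were highest in control replicate 2 and lowest in control replicate 3.

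All 13 glycolytic genes and all 17 genes of the TCA cycle reached 1 CPM in every control library. Gapdh2 led glycolysis per kb (253 CPM) and Mdh2 the TCA cycle (252 CPM). In CPM, Gapdh2 measured 367, 346 and 382, and the aldolase gene Ald1 699.9, 684 and 712. The lactate dehydrogenase gene Ldh was the most variable of the glycolytic genes, with 17.7, 32.4 and 7.53 CPM. The median coefficient of variation was 7.31% for the glycolytic genes, against 12.7% for all genes of 100 to 1000 CPM. Among lipid genes, 6 of 19 were high. The lipid droplet gene Lsd-2 measured 1368, 1369.6 and 1832 CPM and the fatty acid synthase gene FASN1 650.5, 779 and 665 CPM, while the paralogues Lsd-1 and FASN2 measured at most 2.09 CPM. The lipase gene bmm measured 211, 238 and 249.9 CPM. Of 25 redox and detoxification genes, Trxr1, for thioredoxin reductase, was the high one with 301, 344 and 314 CPM. The catalase gene Cat measured 196, 212 and 241 CPM, and Cyp6a8 had no count.

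Of 26 stress response genes 16 were high. The small heat shock genes Hsp26 and Hsp23 measured 2638, 2381 and 2375 CPM and 741, 791 and 851 CPM. Hsp68 measured 4561, 3790.2 and 4869 CPM and puc, for a phosphatase induced by JNK, 863, 707 and 781 CPM. The Hsp70 genes are near-identical copies, and how their reads were split between copies is uncertain. Hsp70Ab measured 2701, 1797 and 4022 CPM, Hsp70Bb 1601, 1395 and 2281 CPM and Hsp70Aa 55.4, 34.2 and 64.7 CPM. The labels describe warm enzymatic dissociation before sorting in all groups, and its part in these levels was not tested.

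At most 3 counts in every control library were found for 415 genes, of which 166 had no count at all. Protein-coding genes made up 374 of them. Of the 415 genes, 75 also stayed within 3 counts in each of the other 9 libraries. A gene at this level in control can enter the contrast given below only through the other groups. In this way 73 of the 415 genes were tested and 8 were called lower, the only direction open to them. These calls are therefore not read as results.

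Spread between control libraries fell with level up to 1000 CPM. The median coefficient of variation was 45.3% for 2423 genes of 1 to 10 CPM, 19.0% for 3651 genes of 10 to 100 CPM, 12.7% for 1676 genes of 100 to 1000 CPM and 14.6% for 184 genes above 1000 CPM. Of 5511 genes with a mean of at least 10 CPM, the highest control library exceeded the lowest by more than 5 times for 54 and by more than 10 times for 16.

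Of the 54 genes, 10 were highest in control replicate 1, 24 in replicate 2 and 20 in replicate 3. Among the 10 widest spreads, control replicate 3 was the highest for CG12057 (3.49, 2.65 and 184 CPM), CG8997 (4.99, 11.7 and 197 CPM), the lipase gene mag (4.99, 11.4 and 131 CPM) and the protease gene Jon25Biii (13.2, 8.93 and 194 CPM). CG11911, CG10472 and the protease gene Jon99Ciii were also highest there, with 46.0, 131 and 45.2 CPM. Control replicate 2 was the highest for the mannosidase genes LManV (2.00, 52.9 and 6.69 CPM) and LManVI (20.2, 124 and 10.0 CPM) and for CG5910 (11.2, 33.5 and 1.95 CPM). Without control replicate 3, the mean of Jon25Biii was 11.1 CPM in place of 72.2 CPM. Of 7 digestive enzymes with a mean of at least 10 CPM, 6 spread by more than 5 times. Summed over 30 digestive enzymes, the control libraries held 116, 342 and 405 CPM, within the 65.2 to 673 CPM of the other 9.

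Cell cycle genes differed between control libraries in another order. Of 34 such genes with a mean of at least 10 CPM, 26 were highest in control replicate 2 and 27 lowest in control replicate 3. Over all 5511 genes, 1645 were highest in replicate 2 and 1802 lowest in replicate 3. The cyclin gene CycB measured 29.9, 54.2 and 7.25 CPM, the mitotic kinase gene polo 36.9, 48.7 and 8.65 CPM and the replication clamp gene PCNA 28.7, 34.6 and 10.9 CPM. Cdk1, for the kinase of mitotic entry, had no count in control replicate 3. The cyclin gene CycG, in contrast, was high in every library with 1426, 1283 and 1560.1 CPM. Of 98 transcription factor genes at that level 59 were highest in control replicate 1, against 1634 of 5511, and of 77 ribosomal protein genes 58 were lowest in control replicate 3. Genes highest in control replicate 2 had a median of 2085.5 exon bases, against 2701.5 and 2698.5 for those highest in replicates 1 and 3. The part of transcript length in these differences was not tested.

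**Figure D4:**
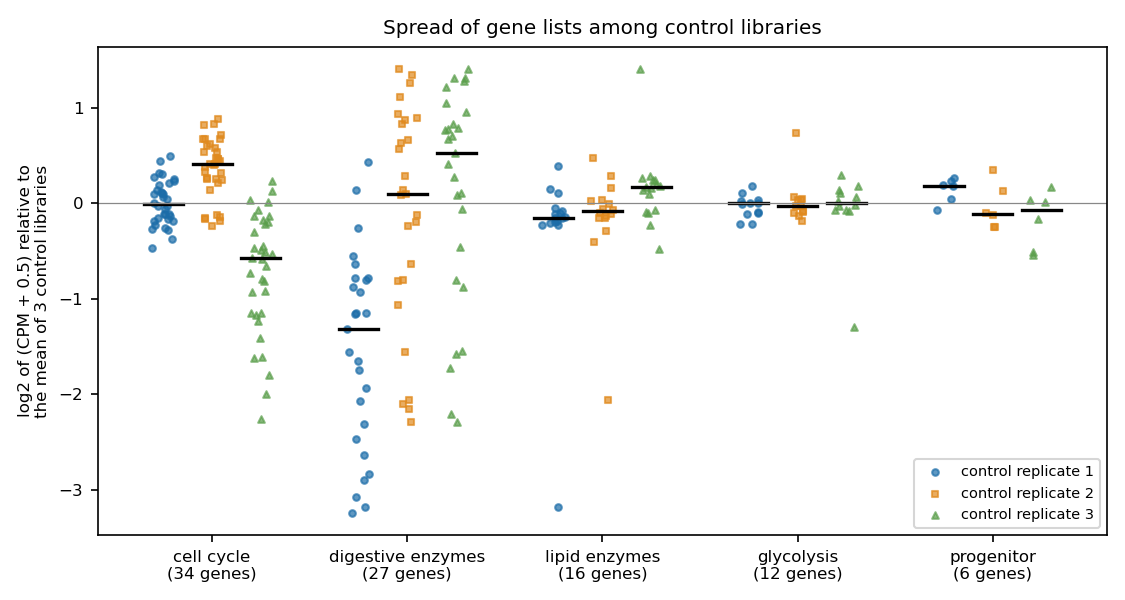
log2 of CPM + 0.5 in each control library relative to the mean of the 3, for genes of 5 lists with a mean of at least 10 CPM (for digestive enzymes, the 27 with a count), with black bars at the median. The median of cell cycle genes is high in replicate 2 and low in replicate 3, that of digestive enzymes is low in replicate 1, and glycolytic genes lie near 0 except Ldh.

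The control transcriptome was then set against the unweighted mean of the other 3 groups on the log scale (edgeR quasi-likelihood test with Benjamini-Hochberg adjustment). Where these 3 groups differ widely, the log2 difference therefore departs from that of the CPM means. Control came from a cross to Canton-S, and the other 3 groups each carried a UAS construct for Svb. Parental line, construct and Svb activity therefore cannot be told apart in this contrast. Of 8069 genes tested, 368 passed an adjusted p of 0.05 (4.56%), with 307 higher (3.8%) and 61 lower (0.756%) in control. The 61 include 8 genes with at most 3 counts in every control library, which could be called only lower. Control did not overlap the other 9 libraries for 2.90% of the tested genes, lying above them for 161 and below them for 73. Without control replicate 1, 2 or 3, the number of genes that passed was 134, 220 or 102. Without SvbREP replicate 3 it was 482. With the other 9 libraries treated as 1 group, 7 genes passed, all higher in control.

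Syt4, for a synaptotagmin that acts in vesicle fusion, measured 38.2, 39.9 and 37.4 CPM in control and 0 to 1.25 CPM in the other 9 libraries. The log2 difference was 7.88 ± 0.64 (SE, adjusted p = 5.21e-06, edgeR). The 5 genes named here, and the 5 lower genes named next, were chosen among called genes without overlap. Their lack of overlap was therefore set by that rule. This fitted value depends on the prior count, because the 3 SvbACT libraries had no count. With at most 1.25 CPM in the others, Syt4 entered the test through control alone. Its direction was set by that entry, so these values are a description. Hsp70Ba measured 345, 297 and 479.5 CPM against 24.7 to 80.3 CPM, a log2 difference of 2.92 ± 0.29 (adjusted p = 5.49e-05, edgeR). Its reads may include those of near-identical copies. The copies Hsp70Ab, Hsp70Bb and Hsp70Aa were tested and not called, so the difference holds for this copy only. Erasp, with 42.2, 48.7 and 71.4 CPM, was also higher without overlap, against 2.13 to 27.1 CPM in the others. So was tei, with 58.1, 43.4 and 107 CPM against 2.70 to 28.8 CPM, and CG5246, with 42.7, 40.2 and 46.0 CPM against 2.13 to 23.1 CPM. Their log2 differences were 2.99, 2.74 and 2.59. The calls of Hsp70Ba, Erasp, tei and CG5246 were kept without each of the 12 libraries in turn.

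Among genes lower in control, rdog measured 5.49, 5.72 and 3.35 CPM against 8.40 to 131 CPM, and was called lower (adjusted p = 0.000185, edgeR). The piRNA pathway helicase gene spn-E measured 4.49, 10.6 and 6.97 CPM against 11.7 to 61.4 CPM, a log2 difference of -2.04 ± 0.32. Control did not overlap the other 9 libraries for either gene, as the rule for naming them required. Both calls were kept without each library in turn. CG8301, CG6163 and Pura had a control mean of 0.954, 1.07 and 1.07 CPM and log2 differences of -3.04, -2.94 and -2.49. With fewer than 10 counts in every control library, these 3 genes entered the test through the other groups, so their lower call was the only one possible and these values are a description.

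Of the 6 progenitor genes tested 2 were higher in control, where 3.8% of all tested genes were. The lists were chosen with earlier results of these data known, so list counts here and below are descriptions. The log2 difference was 0.65 ± 0.17 for zfh2 (adjusted p = 0.0366, edgeR) and 0.56 ± 0.16 for klu (adjusted p = 0.0491, edgeR), and both overlapped the other 9 libraries. The zfh2 mean was 2717 CPM in control, 3233 in SvbACT, 1365 in SvbREP and 1170.2 in the libraries labelled svb knockdown. The klu mean was 785 CPM in control, 719.6 in SvbACT, 523 in SvbREP and 401 in the libraries labelled svb knockdown. Omitting 1 library removed the call of zfh2 in 10 of 12 cases and that of klu in 11, with adjusted p up to 0.346 and 0.458 (edgeR). For both genes the highest came without control replicate 1. Sox100B, at a log2 difference of 0.44 ± 0.15 (adjusted p = 0.123, edgeR), did not pass.

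Of 120 transcription factor genes tested 14 were higher and 3 lower, where 3.8% and 0.756% of all tested genes were. The 3 lower genes include ovo, which the constructs of the other groups target or carry. Their median log2 difference was 0.17 beside 0.01 for all genes. Mad was higher by 1.18 ± 0.18 (adjusted p = 0.00068, edgeR), with control above all of the 139 to 535 CPM of the others. Hnf4, for a nuclear receptor that regulates lipid use, measured 348, 334 and 329 CPM against 101 to 207 CPM. Stat92E was higher by 0.70 on the log2 scale, a call lost without control replicate 1 or 3 (adjusted p = 0.129 and 0.263, edgeR). The ecdysone-responsive gene br was lower, with a log2 difference of -2.48, but its group means differed widely, with 80.6 CPM in control, 1813 in SvbACT, 49.5 in SvbREP and 1002 in the libraries labelled svb knockdown. Control lay within the range of the other 9 libraries.

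Of 67 receptor genes tested 8 were higher and 1 lower, where 3.8% and 0.756% of all tested genes were. Their median log2 difference was 0.14. The kinase gene Pvr, chosen after its values were seen, measured 321, 344 and 345 CPM against 39.9 to 249 CPM, a log2 difference of 1.70 ± 0.19 (adjusted p = 4.4e-05, edgeR). It did not overlap the other groups and kept its call without each library. Among pathway genes, Cbl (1.09 ± 0.14 on the log2 scale, adjusted p = 0.000185, edgeR) lay above all other libraries, at 207 to 484 CPM. The call of fng, at 0.99, was lost without control replicate 3 (adjusted p = 0.0773, edgeR). The death inducer hid was higher by 2.31 ± 0.33 (adjusted p = 0.000488, edgeR), with the others at 1.80 to 21.5 CPM.

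Of 18 lipid genes tested 5 were higher, where 3.8% of all tested genes were, with a median log2 difference of 0.33. Acsl, for an acyl-CoA synthetase, measured 351, 418 and 464 CPM against 150.1 to 279 CPM and kept its call without each library. The call of Lpin was lost without control replicate 3 (adjusted p = 0.0638, edgeR), and those of Lsd-2, FASN1 and whd in 8, 7 and 10 of 12 omissions (adjusted p up to 0.396, 0.173 and 0.336, edgeR). Of 22 redox and detoxification genes tested 2 were higher and 3 lower, where 3.8% and 0.756% of all tested genes were. The glutathione transferase gene GstO3 was higher by 0.86 on the log2 scale without overlap, a call lost without control replicate 3 (adjusted p = 0.0996, edgeR), and the cytochrome P450 gene Cyp12a4 by 2.40 with overlap. Cyp4p1, of the same family, was lower by a log2 difference of -1.34, a call lost without each control library (adjusted p up to 0.125, edgeR). The glutathione transferase genes GstD1 and GstS1 were lower without overlap, with log2 differences of -0.94 and -1.59, and the call of GstD1 was lost without control replicate 3 (adjusted p = 0.0728, edgeR). The matrix metalloprotease gene Mmp1 was higher by 1.94 on the log2 scale, yet its mean was 323 CPM in control, 54.4 in SvbACT, 411 in SvbREP and 27.1 in the libraries labelled svb knockdown. Of 44 cell cycle genes 0 passed with edgeR, where 4.56% of all tested genes did, with a median log2 difference of -0.60. At an unadjusted p under 0.05, 13 of them were lower and 1 higher in control, where 4.5% of all tested genes were lower and 9.75% higher. DESeq2 called 4 of them lower, where it called 1.89% of all its tested genes lower and 4.38% higher. As given above, 27 of the 34 most abundant were lowest in control replicate 3, and the part of that library in the difference was not tested. Of 17 TCA cycle genes 0 passed with edgeR or with DESeq2, which called 6.27% of all its tested genes, and 2 had an unadjusted p under 0.05, as had 14.3% of all tested genes. Of 13 glycolytic genes Hex-A, for a hexokinase, was called lower, as were 0.756% of all tested genes. Hex-A lost this call without control replicate 1 or 3 (adjusted p = 0.0517 and 0.0795, edgeR). Its mean was 256 CPM in control, 1783 in SvbACT, 155 in SvbREP and 408 in the libraries labelled svb knockdown.

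**Figure D5:**
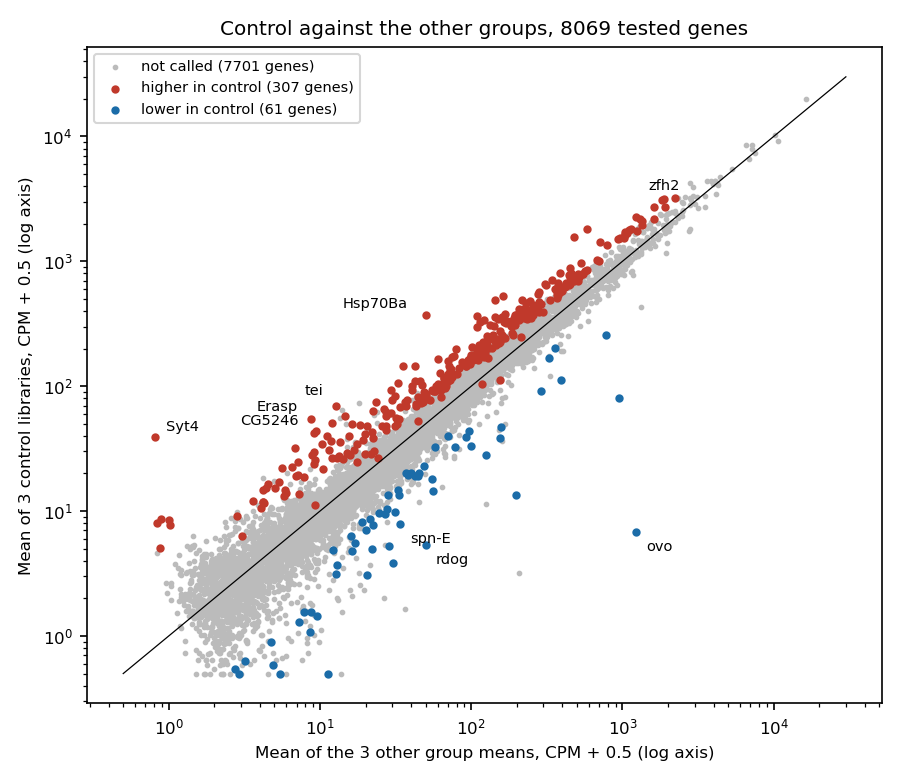
Mean of the 3 control libraries (CPM + 0.5) against the mean of the 3 other group means (CPM + 0.5), both on log axes, for 8069 tested genes, with genes called higher (307, red) or lower (61, blue) in control and a line of equality. Syt4 and Hsp70Ba lie far above the line, and ovo, which the constructs of the other groups target or carry, far below it.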

How the data were processed

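Read counts per gene were deposited by the authors as whole numbers for 8802 genes in 12 libraries. Per the submitters' processing notes, FastQC 0.11.5, STAR 2.5.2b, HTSeq 0.6.0, edgeR and dm6 were used. The use of strand, the annotation release and the rule that chose the genes are not given in the sources used here. Per the labels, RNA was amplified with the Ovation SoLo kit and read as single reads of 100 nt. Per the series' design text, replicates were biological and made on different days. Of the identifiers, 8686 matched a symbol in Ensembl release 115 (BDGP6).

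CPM was computed on totals scaled by TMM over all 12 libraries, and CPM per kb from the union of exons. The contrast was fitted in R 4.3.3 with edgeR 4.0.16 (filterByExpr, glmQLFit, robust), with the SE taken from F. DESeq2 1.42.0 was an alternative. Tested on simulated data of 8069 genes, the contrast called 31 of 62 genes changed by 1 on the log2 scale, 53 of 67 changed by 2 and 69 of 71 changed by 3, with 6 false calls.

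The members and the 31 gene lists were chosen with earlier results of these data known. Of 898 list entries, 700 had a row in the table. Named genes were the 20 highest by CPM, the 15 highest per kb, members of the lists (for transcription factors and receptors, the 10 highest per kb and those with at most 3 counts), the 10 widest spreads at a mean of at least 10 CPM, and up to 5 non-overlapping changes in each direction.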

Additional observations from a re-analysis of the deposited data

How the results depend on the processing

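The 415 genes with at most 3 counts in every control library became 249 at a limit of 1 count, 1019 at 10 counts, and 509 to 658 when a control library was left out. Per kb, the 20 leaders held 23.1% of the total and shared 7 genes with the CPM ranking. The coefficient of variation was 23.9% for genes with at least 10 counts, 34.6% over all 12 libraries and 19.5% to 25.9% without 1 control library. DESeq2 called 518 genes, 362 higher and 156 lower, so that 69.9% were higher against 83.4% with edgeR. With the other 9 libraries as 1 group, 7 were called, 7 higher and 0 lower. Leaving out 1 library gave 102 to 482 calls, 83 to 367 higher and 19 to 115 lower. The labels do not say that a replicate number marks a day or batch. For that reason the numbers were treated as not pairing the samples. Correlations of same-numbered deviations ran from 0.0135 to 0.305, all positive, with 3 of 9 at most 0.0959, and do not settle the question. The 3 pairs of control and SvbREP lay at 0.131 to 0.305, and 3 of 3 control libraries correlated best with their own number, a hint from the data and not the design. The replicate block gave 514 calls, 410 higher and 104 lower, against 368, 307 and 61 without it. No alternative run reversed the sign of a log2 difference among the called genes examined. These include Syt4, CG8301, CG6163 and Pura, whose direction was set by their entry into the test. Of the called genes examined, only Syt4 and Hsp70Ba kept their call in every alternative run. For Syt4, which entered through control alone, this is a description. A call kept without each library could still be lost in another alternative. Depth limits statements below 0.837 CPM.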
